A study of Homo sapiens with 6 samples.

Results

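The serine synthesis and amino acid transport set holds 10 genes, found by their symbols among the 30483 genes of the joint table of all 6 libraries, and all 10 passed the filter on low values. The 5 enzyme genes are PHGDH, PSAT1, PSPH, SHMT2 and MTHFD2, and the 5 transporter genes are SLC7A11, SLC7A5, SLC3A2, SLC7A1 and SLC1A5. RNA was sequenced from A549, an established human lung adenocarcinoma cell line, kept in RPMI-1640 medium with 10% fetal bovine serum. One group of 3 libraries came from cells given 5 µM anlotinib for 48 h, and the other group of 3 from cells given the solvent DMSO for 48 h. Anlotinib is a small molecule that inhibits several receptor tyrosine kinases. Both groups are 1 cell line, and the labels do not say whether replicates were separate cultures, so the p-values speak only of how far these libraries spread, and that spread may be technical. The series set out to find pathways through which anlotinib acts on pressure in the tumor stroma, and its title names the extracellular matrix and RhoA/ROCK signalling.

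Cells make serine from the glycolytic intermediate 3-phosphoglycerate in a chain of enzymes, and serine then gives glycine and 1-carbon units that folate carries to nucleotide synthesis. Amino acids that are not made are imported by carriers of the plasma membrane, some of which work as a heavy chain joined to a light chain. Many genes of both groups are known targets of ATF4, a transcription factor that is translated more when amino acids run short or the endoplasmic reticulum is stressed.

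The libraries held 13886120 to 15386107 reads assigned to genes, and the genes of the set had 763 to 48720 reads per library. Values are normalized counts, which are the reads of a gene divided by 1 size factor per library. Anlotinib replicate 1 lay nearest to DMSO on the largest component of variation, at 19.1 against 36.2 and 41.0 for anlotinib replicates 2 and 3. Keratin gene KRT8 was abundant in every library, at 15040 to 23132 with anlotinib and 20693 to 21397 with DMSO, whereas the epithelial marker EPCAM stood at 4.03 to 11.5 with anlotinib and 4.11 to 8.57 with DMSO. The summed epithelial markers, 6 genes with KRT7 the most abundant, ran from 37881 to 56372 with anlotinib and from 71165 to 74543 with DMSO. Of the listed markers of other cells, the 6 fibroblast genes analysed summed to 454 to 738 with anlotinib and to 2174 to 2943 with DMSO, most of it COL1A1. The 5 endothelial genes summed to 12.1 to 23.9 with anlotinib and to 10.2 to 18.5 with DMSO. The 2 blood cell genes analysed of 5 listed summed to 79.8 to 90.8 with anlotinib and to 58.2 to 90.4 with DMSO, nearly all of it CD14. The pan-leukocyte gene PTPRC was at most 2.02 in any library and the endothelial gene PECAM1 at most 1.01. The part of these markers in the results below was not tested.

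Of the 10 genes, 6 rose with anlotinib and 0 fell, against 10.5% of all 15734 genes tested that rose and 12.7% that fell (limma, Benjamini-Hochberg adjusted p under 0.05 over all genes tested). The genes that rose were the 3 enzymes of serine synthesis, PHGDH, PSAT1 and PSPH, the mitochondrial folate enzyme MTHFD2, the neutral amino acid carrier SLC1A5 and the cystine carrier SLC7A11. SHMT2, SLC7A5, SLC3A2 and SLC7A1 did not pass. Over all genes tested, 1645 rose and 2003 fell, and with scaling by library totals 2068 rose and 1552 fell. Without anlotinib replicate 2, 871 genes rose and 1108 fell, and 4 of the 10 genes of the set rose. Without anlotinib replicate 1, 2268 genes rose and 3205 fell. Without DMSO replicate 1, 2 or 3, 1032, 1061 or 1081 genes rose and 1256, 1198 or 1232 fell, and 5, 4 or 5 of the 10 genes rose. At an unadjusted p under 0.05, 7 of the 10 genes were higher and 0 lower. Of all 15734 genes tested, 5665 were under that threshold, 45.1% of them higher. The count of lower genes among the 10 was also 0 with edgeR and with DESeq2. All 3 anlotinib libraries were above all 3 DMSO libraries for 7 of the 10 genes, against 18.8% of the genes tested. The median log2 fold change was 0.41 for the 10 genes and -0.02 for all genes tested. In this bulk RNA, fewer cells that make a transcript and less of it per cell cannot be told apart.

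**Figure D1:**
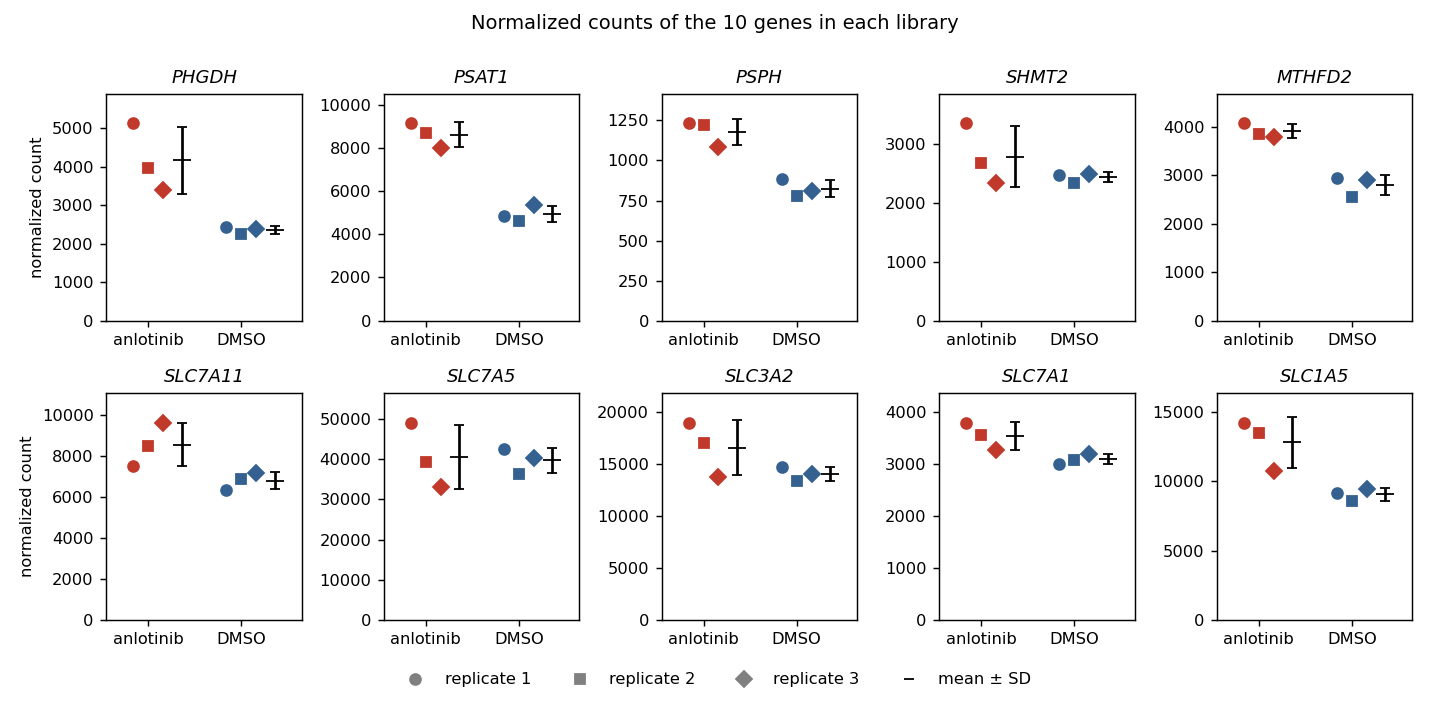
Normalized count (vertical axis, from 0) of each of the 10 genes in the 3 anlotinib and the 3 DMSO libraries, with a symbol per replicate and the mean ± SD beside each group. PHGDH, PSAT1, PSPH, MTHFD2, SLC7A11, SLC7A1 and SLC1A5 have no overlap between groups, and anlotinib replicate 1 is the highest anlotinib library for all but SLC7A11.

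PHGDH, phosphoglycerate dehydrogenase, opens the serine pathway by oxidizing 3-phosphoglycerate. The gene (ENSG00000092621) lies on chromosome 1 at 119648411 to 119744226 on the forward strand of GRCh38, the build of all gene positions here, each of which covers the whole annotated gene with exons and introns. PHGDH had 5131, 3971 and 3411 normalized counts with anlotinib, against 2444, 2249 and 2390 with DMSO. Its groups did not overlap, and its anlotinib libraries spread more widely than its DMSO libraries, with means of 4171 ± 877 with anlotinib and 2361 ± 101 with DMSO (SD, n = 3 each). PHGDH rose 1.74-fold, a log2 fold change of 0.80 (SE 0.13, limma adjusted p = 0.00070). Without anlotinib replicate 1 the log2 fold change was 0.64 and still passed.

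PSAT1, phosphoserine aminotransferase 1, transfers an amino group from glutamate in the middle step (ENSG00000135069, chromosome 9, 78297143 to 78330093, forward strand). PSAT1 had 9133, 8690 and 7978 normalized counts with anlotinib, against 4863, 4623 and 5357 with DMSO. Every anlotinib library was well above every DMSO library. PSAT1 rose 1.74-fold, at 8600 ± 583 with anlotinib and 4948 ± 374 with DMSO (SD, n = 3 each; log2 fold change 0.80, SE 0.09, limma adjusted p = 9.37e-05), the smallest adjusted p of the 10 genes.

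PSPH, phosphoserine phosphatase, removes the phosphate in the last step and releases free serine (ENSG00000146733, chromosome 7, 56011051 to 56051604, reverse strand). PSPH had 1232, 1219 and 1083 normalized counts with anlotinib, against 885, 778 and 809 with DMSO. Its groups did not overlap either. PSPH rose 1.43-fold, at 1178 ± 82.2 with anlotinib and 824 ± 54.6 with DMSO (SD, n = 3 each; log2 fold change 0.51, SE 0.09, limma adjusted p = 0.0017). Its pseudogene PSPHP1 had at most 1.77 normalized counts in any library. All 3 serine synthesis enzymes passed in each of the 6 fits that left out 1 library.

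SHMT2 and MTHFD2 work one after the other in mitochondria. SHMT2, serine hydroxymethyltransferase 2, splits serine into glycine and a 1-carbon unit on folate (ENSG00000182199, chromosome 12, 57229327 to 57234935, forward strand). SHMT2 had 3345, 2671 and 2330 normalized counts with anlotinib, against 2471, 2338 and 2494 with DMSO. Anlotinib replicate 1 was above all DMSO libraries and anlotinib replicate 3 below all of them. The log2 fold change of SHMT2 was 0.18 with a 95% interval of -0.08 to 0.43 (limma adjusted p = 0.30). It was 0.036 without anlotinib replicate 1 and 0.30 without anlotinib replicate 3, which passed (adjusted p = 0.039). NDUFA4L2 overlaps SHMT2 on the opposite strand over 33 bases, and its mean was 1.99% of that of SHMT2.

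MTHFD2, a methylenetetrahydrofolate dehydrogenase and cyclohydrolase, oxidizes the folate that SHMT2 loads (ENSG00000065911, chromosome 2, 74198562 to 74217565, forward strand). MTHFD2 had 4070, 3859 and 3796 normalized counts with anlotinib, against 2939, 2559 and 2900 with DMSO. It had the smallest relative spread of the 10 genes among anlotinib libraries, 3.66% of the mean. MTHFD2 rose 1.40-fold, at 3908 ± 143 with anlotinib and 2799 ± 209 with DMSO (SD, n = 3 each; log2 fold change 0.48, SE 0.09, limma adjusted p = 0.0017), and passed in all 6 fits that left out 1 library. It overlaps SLC4A5 and AC006030.1 on the opposite strand, which had at most 10.6 normalized counts in any library.

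Among other enzymes that handle serine, glycine and folate, more genes fell than rose. Of 8 further serine and glycine genes tested, 0 rose and 2 fell at a limma adjusted p under 0.05, with the same counts by edgeR and by DESeq2, and 1 was higher at an unadjusted p under 0.05. The genes that fell were GLDC, the glycine decarboxylase of the glycine cleavage system, at -0.58 (SE 0.11, adjusted p = 0.0030), and SHMT1, the cytosolic counterpart of SHMT2, at -0.51 (SE 0.13, adjusted p = 0.017). SHMT1 had 840, 671 and 572 normalized counts with anlotinib, against 1101, 869 and 979 with DMSO, and the groups did not overlap. Its call was lost without any one of anlotinib replicate 2, DMSO replicate 1 and DMSO replicate 3 (adjusted p = 0.0705, 0.0927 and 0.0582). SDS, serine dehydratase, had 24.2 to 33.3 normalized counts with anlotinib and 8.21 to 21.4 with DMSO, and did not pass (log2 fold change 1.02, adjusted p = 0.060), though it passed without anlotinib replicate 1 or DMSO replicate 2 (adjusted p = 0.0294 and 0.0417). Its log2 fold change was 0.65 without DMSO replicate 3.

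Of 17 folate genes outside the set, 2 rose, 7 fell and 8 did not pass, with a median log2 fold change of -0.21. The 7 include SHMT1, also counted above, and MTR, also counted below among genes of the methionine cycle. MTHFD1, the cytosolic trifunctional folate enzyme, had 1862, 1652 and 1517 normalized counts with anlotinib, against 2789, 2877 and 2760 with DMSO (log2 fold change -0.75, limma adjusted p = 0.00012). MTHFD1 was lower in every anlotinib library than in any DMSO library. Grouped by compartment after the values were seen, 2 of 5 mitochondrial folate enzymes rose, MTHFD2 and ALDH1L2, which oxidizes the formyl group of folate to carbon dioxide (0.76, adjusted p = 0.00041), and 0 fell. Among cytosolic enzymes, TYMS, thymidylate synthase, also named after its value was seen, stood at -0.38 (adjusted p = 0.038). Of 11 genes of the methionine cycle and its branches, 4 fell and 0 rose, also 0 by edgeR, by DESeq2 and at an unadjusted p under 0.05. They were led by the spermine synthase gene SMS (-0.58, adjusted p = 0.00035) and then MTR, methionine synthase (-0.47, adjusted p = 0.0017), and SRM, spermidine synthase (-0.59, adjusted p = 0.0081). The call of SRM was lost without DMSO replicate 1 (adjusted p = 0.0564).

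Among the transporters of the set, SLC1A5 and SLC7A11 rose. SLC1A5, also called ASCT2, exchanges glutamine, serine and other neutral amino acids (ENSG00000105281, chromosome 19, 46774883 to 46788594, reverse strand). SLC1A5 had 14256, 13475 and 10740 normalized counts with anlotinib, against 9168, 8561 and 9437 with DMSO. The groups did not overlap, and anlotinib replicate 3 lay nearest to DMSO. SLC1A5 rose 1.41-fold, at 12824 ± 1846 with anlotinib and 9055 ± 449 with DMSO (SD, n = 3 each; log2 fold change 0.49, SE 0.11, limma adjusted p = 0.0087). The call was lost without anlotinib replicate 2 or DMSO replicate 2 (adjusted p = 0.0605 and 0.054).

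SLC7A11, also called xCT, is the light chain that imports cystine in exchange for glutamate, feeding glutathione synthesis (ENSG00000151012, chromosome 4, 138164097 to 138242349, reverse strand). SLC7A11 had 7516, 8474 and 9625 normalized counts with anlotinib, against 6316, 6881 and 7140 with DMSO. The groups did not overlap, and anlotinib replicate 3 was the highest library, whereas replicate 1 was the highest anlotinib library for each of the other 9 genes. SLC7A11 rose 1.25-fold, at 8538 ± 1056 with anlotinib and 6779 ± 421 with DMSO (SD, n = 3 each; log2 fold change 0.33, SE 0.11, limma adjusted p = 0.042). The call was lost in 5 of the 6 fits that left out 1 library (adjusted p = 0.0644 to 0.167) and was kept without anlotinib replicate 1 (0.42, adjusted p = 0.0016). It was also lost with TMM scaling and with no filter on low values (adjusted p = 0.0503 and 0.0636). The antisense gene SLC7A11-AS1 overlaps SLC7A11. No strand setting is given, so whether reads of the pair were told apart there is not known. SLC7A11-AS1 had 101, 112 and 164 normalized counts with anlotinib, against 73.9, 89.8 and 67.8 with DMSO, and its mean was 1.32% of that of SLC7A11. It rose by 0.68 on the log2 scale (adjusted p = 0.030).

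SLC7A5, also called LAT1, is the light chain that carries leucine and other large neutral amino acids (ENSG00000103257, chromosome 16, 87830023 to 87869488, reverse strand). SLC7A5 had 49151, 39426 and 33119 normalized counts with anlotinib, against 42426, 36417 and 40268 with DMSO. The anlotinib libraries lay on both sides of the DMSO libraries, at 40565 ± 8076 with anlotinib and 39704 ± 3044 with DMSO (SD, n = 3 each). The log2 fold change of SLC7A5 was 0.01 with a 95% interval of -0.32 to 0.35 (limma adjusted p = 0.96), an interval that holds changes in either direction. Its sign was negative without anlotinib replicate 1, at -0.13, and without DMSO replicate 2, at -0.05. Its pseudogene SLC7A5P1 had 15.1 to 17.1 normalized counts with anlotinib and 20.5 to 28.6 with DMSO, 0.052% of the SLC7A5 mean.

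SLC3A2, also called CD98 or 4F2hc, is the heavy chain that brings SLC7A5, SLC7A11 and other light chains to the cell surface (ENSG00000168003, chromosome 11, 62856102 to 62888875, forward strand). SLC3A2 had 19017, 17029 and 13736 normalized counts with anlotinib, against 14718, 13405 and 14023 with DMSO. Anlotinib replicates 1 and 2 were above all DMSO libraries and replicate 3 was within their range. The log2 fold change of SLC3A2 was 0.23 with a 95% interval of -0.04 to 0.50 (limma adjusted p = 0.21), and it passed without anlotinib replicate 3 (0.36, adjusted p = 0.0098) and with scaling by library totals (0.30, adjusted p = 0.0192). It was 0.12 without anlotinib replicate 1.

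SLC7A1, also called CAT1, imports arginine and lysine and works without SLC3A2 (ENSG00000139514, chromosome 13, 29509410 to 29595688, reverse strand). SLC7A1 had 3806, 3557 and 3279 normalized counts with anlotinib, against 3006, 3083 and 3196 with DMSO. The groups did not overlap, though anlotinib replicate 3 and DMSO replicate 3 lay close together. The log2 fold change of SLC7A1 was 0.19 with a 95% interval of 0.01 to 0.38 and did not pass after adjustment (limma adjusted p = 0.12). It passed without anlotinib replicate 3 (0.25, adjusted p = 0.0308) and with scaling by library totals (0.27, adjusted p = 0.0151).

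**Figure D2:**
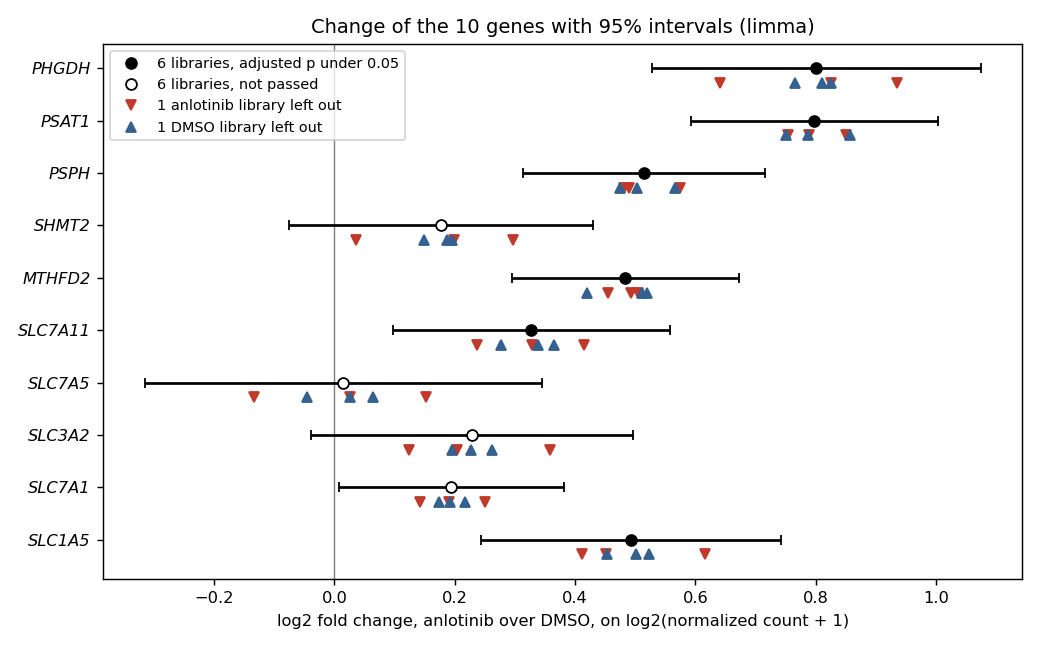
Log2 fold change of anlotinib over DMSO (horizontal axis) for the 10 genes with 95% intervals, and below each the values when 1 anlotinib or 1 DMSO library is left out. PHGDH and PSAT1 stand at 0.80 and SLC7A5 at 0.01, and the leave-one-out values of PSAT1 keep within 0.75 to 0.86 while those of PHGDH run from 0.64 to 0.94.

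Promoter windows were searched for TGATGNAAN, the composite motif bound by C/EBP and ATF factors, since several genes of the set are known ATF4 targets. RefSeq windows on GRCh38.p14 of 250 bases before to 50 after a start site were at hand for 7 of the 10 genes, 11 windows in all, and PSPH, SHMT2 and SLC7A11 were not searched. On either strand, 3 of the 11 windows held a match, 1 each of SLC3A2, SLC7A1 and SLC1A5, against 3.61% of 35116 windows of the same length in the genome. The matches of SLC3A2 and SLC7A1 begin 36 and 7 bases after a start, and that of SLC1A5 97 bases before one. The starts of the SLC3A2 and SLC1A5 windows lie inside the annotated genes, and that of SLC7A1 is the first base of its gene. The matches are shown 5′ to 3′ along each gene with up to 8 bases on each side and the match in capitals, since they tell apart genes of the set that do and do not hold these letters. The SLC3A2 match is on the other strand than the gene. SLC1A5 rose and the other 2 genes with a match did not pass. With no match in their windows, PHGDH, PSAT1 and MTHFD2 rose and SLC7A5 did not pass. A match is a description of letters and not a measured binding site.
SLC3A2 match, chr11:62881727-62881748, forward strand: caggactcCTTACATCAgctcc
SLC7A1 match, chr13:29595665-29595689, reverse strand: cgcactgcTGATGAAACctggcgcc
SLC1A5 match, chr19:46784895-46784919, reverse strand: gaagtggcTGATGCAAGctgtccag

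Levels between genes were compared per 1000 bases of annotated gene length. With anlotinib the order of mean levels was SLC7A5 (8549 ± 1702 normalized counts per 1000 bases), PSAT1 (3931 ± 266), SLC1A5 (3849 ± 554), SLC3A2 (3205 ± 515), SLC7A11 (885 ± 109), MTHFD2 (803 ± 29.4), SHMT2 (575 ± 107), SLC7A1 (461 ± 34.3), PHGDH (453 ± 95.2) and PSPH (427 ± 29.8), each as SD with n = 3. With DMSO the order was SLC7A5 (8368 ± 641), SLC1A5 (2718 ± 135), SLC3A2 (2713 ± 127), PSAT1 (2261 ± 171), SLC7A11 (703 ± 43.7), MTHFD2 (575 ± 42.9), SHMT2 (503 ± 17.4), SLC7A1 (402 ± 12.4), PSPH (298 ± 19.8) and PHGDH (256 ± 10.95). SLC7A5 was thus the most abundant of the 10 transcripts per length in every library. In anlotinib libraries the ranges of PSAT1, SLC1A5 and SLC3A2 overlapped, as did those of SLC7A11 and MTHFD2. So did those of SHMT2 and SLC7A1, of SHMT2 and PHGDH, and of SLC7A1, PHGDH and PSPH. In DMSO libraries the only neighbours whose ranges overlapped were SLC1A5 and SLC3A2. PSAT1 was above SLC3A2 in all 3 anlotinib libraries and below it in all 3 DMSO libraries. The length used for PHGDH, 9217 bases, spans all 34 annotated transcripts, and its level per length depends on that choice. The same kind of length was used for each gene, so the order of levels depends on it too. SHMT2 has 35 annotated transcripts and SLC3A2 has 23, whereas PSAT1 has 2 and SLC7A5 has 3.

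Genes that work as partners were compared within each library, as differences of log2(normalized count + 1), for 6 pairs. The difference SLC7A5 minus SLC3A2 was 1.37, 1.21 and 1.27 with anlotinib, against 1.53, 1.44 and 1.52 with DMSO. Every anlotinib library was below every DMSO library, and the group means differed by -0.21 (exact permutation test, two-sided p = 0.1, adjusted p = 0.2 over 6 pairs). With 3 libraries against 3, 0.1 is the smallest p that this test can give. Summed per length over the light chains SLC7A5, SLC7A6, SLC7A7, SLC7A8, SLC7A10 and SLC7A11, the ratio to SLC3A2 was 3.05, 2.82 and 3.03 with anlotinib and 3.40, 3.27 and 3.43 with DMSO. SLC7A11 made up 6.96%, 9.49% and 12.4% of that sum with anlotinib and 6.78%, 8.44% and 7.97% with DMSO, and the groups overlapped.

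Of the other 5 pairs, 2 had groups that did not overlap. MTHFD2 minus SHMT2 was 0.28, 0.53 and 0.70 with anlotinib, against 0.25, 0.13 and 0.22 with DMSO, a difference of 0.31 (exact permutation test, p = 0.1, adjusted p = 0.2). PSPH minus PHGDH was -2.06, -1.70 and -1.65 with anlotinib, against -1.47, -1.53 and -1.56 with DMSO, a difference of -0.29 (exact permutation test, p = 0.1, adjusted p = 0.2). In both pairs the groups were apart in these libraries, and the adjusted p did not pass. Without anlotinib replicate 1 the difference of PSPH minus PHGDH was -0.16. PSAT1 minus PHGDH differed by -0.0029 between groups (exact p = 1), SLC7A11 minus SLC3A2 by 0.10 (exact p = 0.9) and SLC7A5 minus SLC7A11 by -0.31 (exact p = 0.4). The last value was -0.55 without anlotinib replicate 1 and -0.085 without anlotinib replicate 3, and that of SLC7A11 minus SLC3A2 was 0.29 and -0.12 without those libraries.

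**Figure D3:**
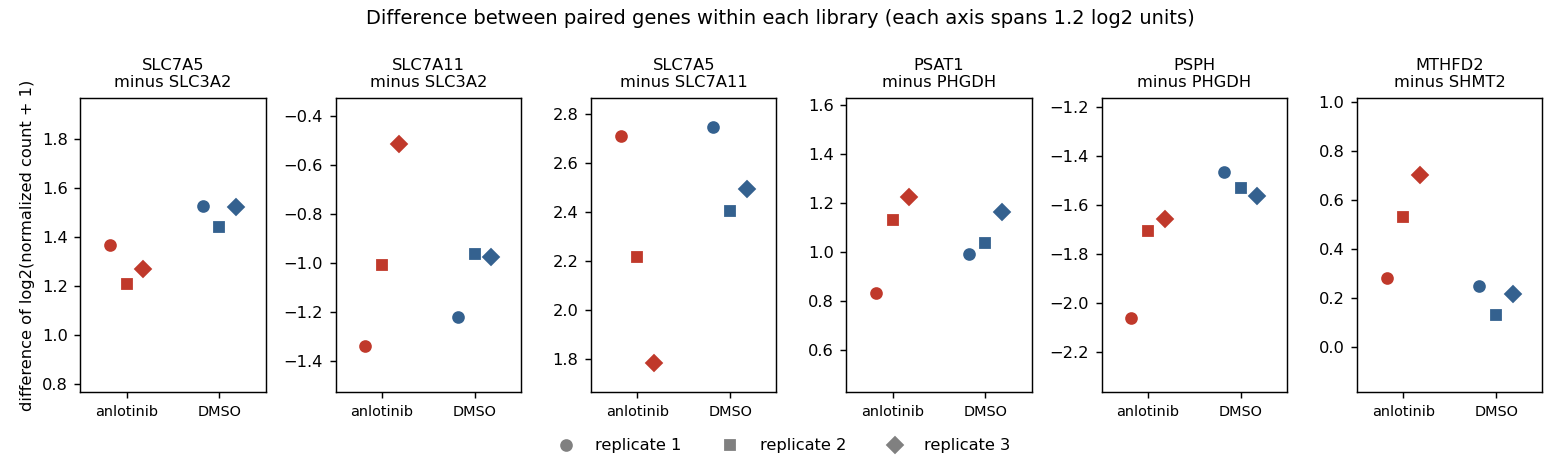
Difference of log2(normalized count + 1) between 2 genes within each library (vertical axis, each spanning the same length) for 6 pairs, with anlotinib libraries left of DMSO libraries. SLC7A5 minus SLC3A2 and PSPH minus PHGDH are lower in every anlotinib library, and MTHFD2 minus SHMT2 is higher in every anlotinib library.

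The anlotinib libraries differed among themselves in the genes of the set. Their relative spread had a median of 13.4% with anlotinib and 5.59% with DMSO over the 10 genes, against 9.28% with anlotinib and 4.37% with DMSO over 3373 genes whose mean was 1000 or more. Anlotinib replicate 1 was highest and replicate 3 lowest for 9 of the 10 genes, against 54.8% of those 3373 genes. The summed normalized counts of the whole library had the same order, at 15373297, 14629046 and 13341090 in anlotinib replicates 1, 2 and 3. The part of that order in the values of the 10 genes was not tested. Without anlotinib replicate 1, the same number of the 10 genes rose, 6, while 2268 of all genes tested rose and 3205 fell. Without anlotinib replicate 3, 8 of the 10 genes rose, while 1549 of all genes tested rose and 1852 fell.

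Among amino acid transporters outside the set, those of the SLC1 and SLC38 families showed both directions, with more genes higher than lower. Of 9 tested, 5 rose and 1 fell (limma adjusted p under 0.05), with a median log2 fold change of 0.44. SLC38A1 and SLC38A2 import small neutral amino acids such as glutamine, and SLC38A1 had 6401, 7074 and 7495 normalized counts with anlotinib, against 4583, 5255 and 5171 with DMSO (0.48, adjusted p = 0.0033). SLC38A2, named after its value was seen, stood at 0.44 (adjusted p = 0.0092), and the lysosomal SLC38A7 at 0.47 (adjusted p = 0.0038). SLC1A3, a glutamate carrier, rose at a low level, with 86.8, 75.1 and 72.7 normalized counts under anlotinib against 23.6, 28.6 and 30.8 under DMSO (1.47, adjusted p = 0.00038). The 1 gene that fell was SLC1A1, named after its value was seen (-0.43, adjusted p = 0.014). SLC1A1 had 248, 257 and 274 normalized counts under anlotinib, against 319, 368 and 368 under DMSO. SLC1A4 did not pass (0.05, adjusted p = 0.82). Within the SLC7 family, 1 of 4 other genes rose, SLC7A8, the light chain LAT2, with 23.2, 56.1 and 43.4 normalized counts under anlotinib against 3.21, 14.3 and 4.11 under DMSO (2.52, adjusted p = 0.0032). SLC7A7 and SLC7A2 did not pass, at 0.58 and 0.03 (adjusted p = 0.21 and 0.85), and SLC7A2 turned to -0.015 without DMSO replicate 1. SLC7A7 stood at 0.28 without DMSO replicate 3.

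Of 11 other transporters, 3 rose and 0 fell, also 0 with edgeR, with DESeq2 and at an unadjusted p under 0.05. They were the glycine carrier SLC6A9 (0.65, limma adjusted p = 0.0056), the taurine carrier SLC6A6 (0.32, adjusted p = 0.022) and SLC43A2, which carries large neutral amino acids (0.34, adjusted p = 0.042). The call of SLC43A2 was lost in 5 fits that left out 1 library, with TMM scaling and with no filter, and that of SLC6A6 was lost without anlotinib replicate 2 or any one of the DMSO libraries (adjusted p = 0.0614 to 0.107).

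**Figure D4:**
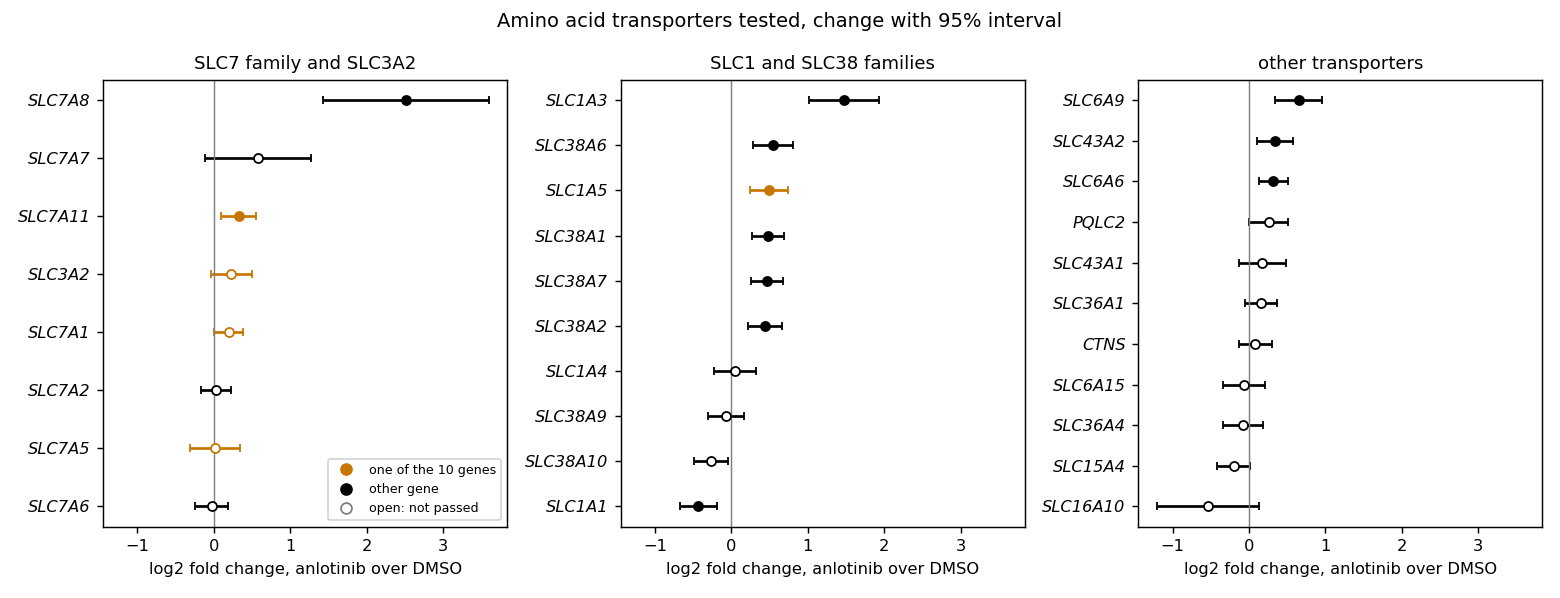
Log2 fold change of anlotinib over DMSO (horizontal axis) with its 95% interval for every tested transporter of 3 lists, with filled points for genes that passed at a limma adjusted p under 0.05 and the genes of the set in orange. SLC7A8 at 2.52 and SLC1A3 at 1.47 are farthest to the right, and SLC7A5 and SLC7A6 lie near 0.

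Enzymes that make other amino acids showed both directions, with 5 of 17 higher and 2 lower (limma adjusted p under 0.05) and a median of 0.13. GLUL, glutamine synthetase, had 347, 383 and 277 normalized counts with anlotinib, against 102, 97.9 and 110 with DMSO (log2 fold change 1.68, adjusted p = 8.4e-06). ASNS, asparagine synthetase, had 108, 123 and 120 with anlotinib, against 62.1, 45.9 and 50.3 with DMSO (1.14, adjusted p = 0.00068), and the alanine aminotransferase GPT2 stood at 0.58 (adjusted p = 0.0016). Of 10 genes of glutathione synthesis, breakdown, recycling and use, 5 rose and 1 fell. The synthesis uses the cystine that SLC7A11 imports. Those that rose were led by CHAC1, which breaks glutathione down (1.35, adjusted p = 8.6e-06), and OPLAH (0.87, adjusted p = 0.00019). CHAC1 is also counted below among genes of the ATF4 pathway. Next was GCLM, a subunit of the first enzyme of synthesis (0.62, adjusted p = 0.00043). Of the other synthesis genes, GCLC rose (0.55, adjusted p = 0.0031) and GSS did not pass (-0.21, adjusted p = 0.21).

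Genes of the ATF4 pathway, which are not all regulators of the set, and other regulators were read from the same fit. Of 24 genes of the ATF4 pathway, 14 rose and 0 fell, also 0 with edgeR and with DESeq2, and the median was 0.42. At an unadjusted p under 0.05, 1 was lower, the kinase gene EIF2AK2 (-0.23). The other kinase genes upstream of ATF4, EIF2AK1, EIF2AK3 and EIF2AK4, did not pass either (-0.13, -0.19 and 0.12), nor did EIF2S1 (-0.16). ATF4 itself had 8352, 7729 and 6122 normalized counts with anlotinib, against 4472, 4704 and 4718 with DMSO (log2 fold change 0.66, SE 0.11, limma adjusted p = 0.0011). ATF4 thus had the order of anlotinib libraries seen in most genes of the set. That order was also seen in 54.8% of the 3373 genes whose mean was 1000 or more. A link between ATF4 and the set was not tested. The pseudokinase gene TRIB3 (1.62), the stress gene NUPR1 (2.17), the secreted STC2 (1.38) and DDIT3, encoding CHOP (1.85), had larger changes than any of the 10 genes. Of 13 other regulators 3 rose, MDM2 (1.61), NFE2L2, encoding NRF2 (0.41, adjusted p = 0.0033), and KDM4C (0.48, adjusted p = 0.0094), and 2 fell, TFEB and MYC. The call of KDM4C was lost without DMSO replicate 1 (adjusted p = 0.053). MYC was lower by a narrow margin (-0.28, adjusted p = 0.047), and the call was lost with edgeR, DESeq2 and each fit that left out 1 library but 1.

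As a description with no test, each of 10848 other genes averaging 100 or more was correlated with the mean pattern of the 5 enzymes and of the 5 transporters over the 6 libraries. Genes closest to the enzymes were PCYT2 (Pearson r = 0.997), MKNK2 (r = 0.9965) and C1orf56 (r = 0.9963), and 609 genes had an r above 0.9. Genes closest to the transporters were TBX2 (r = 0.9983), FOXK2 (r = 0.9973) and KIF3C (r = 0.997), with 428 genes above 0.9. All these points share 6 libraries, 2 groups and the same scaling. The authors' deposited table lists an adjusted p under 0.05 for the same 6 of the 10 genes, the largest of them 0.0137 for SLC7A11, and 0.137 for SLC3A2.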

How the data were processed

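RNA of A549 cells was sequenced in 6 libraries, 3 with anlotinib and 3 with DMSO. Per the labels' protocols, Trizol and a SMARTer mRNA-Seq kit were used. No aligner, counting tool or strand setting is given in the sources used here. The mouse build mm9 is named in the submitters' processing notes, whereas all 30483 genes of the table have the human coordinates of GENCODE release 29 on GRCh38, the build used here. The expression columns are a signal made by the authors, reads divided by 1 size factor per library: 100% of values were whole multiples of 1 step per library to within 1e-06, and 1 read was worth 0.887 to 1.07 normalized counts. A further 5 deposited files repeat single libraries with identical values. The authors' own log2 fold changes and p-values stand in the deposited table.

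limma-trend was run on log2(normalized count + 1) and the 2 groups, over 15734 genes that averaged 10 or more. A fold change is on that log2 scale, which understates the change of low genes. p-values were adjusted by Benjamini-Hochberg over all genes tested, with a threshold of 0.05. The procedure was tested on simulated data. The 10 genes and all gene lists were chosen with earlier results of these data known. The 10 pathway lists held 158 different symbols, of which 150 were matched. All 10 genes were named, and of each list the 3 genes outside the set with the smallest p, plus ATF4, DDIT3, ASNS, NFE2L2 and MYC. Other names were chosen after their values were seen. Some genes that this rule or an overlap would name are not reported here, and they stay in the counts. Alternatives covered the pseudocount, the filter, scaling, edgeR, DESeq2 and limma-voom on recovered reads, a replicate block and 1 library left out at a time. No pair of replicates agreed within sampling noise (chi-square over degrees of freedom, 3.75 to 20.4), so none was taken for 1 library deposited in duplicate; this does not show that they were separate cultures. Figures were drawn with matplotlib 3.10.9, tables handled with pandas 2.3.3 and numpy 2.4.6 under Python 3.11.15, and models run with DESeq2 1.42.0, edgeR 4.0.16 and limma 3.58.1 under R 4.3.3.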

Additional observations from a re-analysis of the deposited data

How the results depend on the processing

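Across 17 alternatives, 4 to 8 of the 10 genes rose and 0 fell, and PHGDH, PSAT1, PSPH and MTHFD2 passed in all of them. SLC7A11 kept its value of 0.33 but did not pass with no filter on low values (limma adjusted p = 0.0636). It stood at 0.31 and did not pass with TMM scaling. SLC7A5 stood at -7.44e-06 with TMM scaling. With library totals SLC3A2 (0.30) and SLC7A1 (0.27) passed. Leaving out 1 library moved the log2 fold change of SLC7A11 between 0.24 and 0.42, of SLC1A5 between 0.41 and 0.62, of SHMT2 between 0.036 and 0.30, of SLC7A5 between -0.13 and 0.15, of SLC3A2 between 0.12 and 0.36, of SLC7A1 between 0.14 and 0.25 and of SLC7A2 between -0.015 and 0.084. It moved PSAT1 minus PHGDH between -0.085 and 0.11, SLC7A11 minus SLC3A2 between -0.12 and 0.29, SLC7A5 minus SLC7A11 between -0.55 and -0.085 and PSPH minus PHGDH between -0.36 and -0.16. The count of all genes higher ran from 871 to 2268 and of all genes lower from 1108 to 3205, in each case lowest without anlotinib replicate 2 and highest without anlotinib replicate 1. Among the 121 other pathway genes, where 37 rose and 17 fell, lower genes ran from 9 to 26. The cause of these shifts was not tested. Same-numbered libraries did not deviate together (r = -0.041, 0.026 and -0.0029), and differently numbered libraries gave r from -0.081 to 0.086. These values show no pairing by number, but they cannot tell whether same-numbered cultures were handled together. A replicate block gave 6 of the 10 genes higher and 1555 higher and 1997 lower genes in all. The precision rests on 3 libraries a group, and each of the 10 genes had at least 763 reads in every library.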
